A study of Mus musculus with 2 samples.

Results

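The miR-29 family of the mouse comes from 4 hairpins, Mir29a, Mir29b-1, Mir29b-2 and Mir29c, and its reads were counted here in small RNA libraries of fetal testes. A read was taken as a member when it was at least 16 nt long and its whole sequence lay, on the sense strand and without mismatch, inside one of these hairpins in GENCODE release M21 (GRCm38). By this rule the family held 4 of the 2201 annotated miRNA genes, 24 distinct sequences and 73 reads in WT and 92 in the library labelled KO, out of 2523084 and 2561491 reads inside all miRNA hairpins. None of the 24 sequences lay in a hairpin outside the family.

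The material was whole testis of C57BL/6 fetuses at E16.5, obtained by natural mating, from wild-type (WT) mice and from mice with a knockout of Hsp90α, a cytosolic chaperone encoded by Hsp90aa1. Each genotype was represented by 1 library made from 20 pooled testes, so no difference between genotypes has a replicate check, and every interval given covers the counting of reads only. PCR copies could not be told from separate molecules. Whole testis holds germ cells, supporting cells, interstitial cells, vessels and blood, and in such material fewer cells of a type and less RNA per cell cannot be told apart.

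The WT library held 6409305 reads and the library labelled KO 5589326, of which 39.4% and 45.8% lay in miRNA hairpins. Sense fragments of 18 nt or more specific to Hsp90aa1 numbered 2 in WT and 10 in the library labelled KO, and those of its paralog Hsp90ab1 numbered 32 and 34. The ratio of the Hsp90aa1 fragments was 4.93 with a counting interval of 1.05 to 46.2, so they were not fewer in the library labelled KO. The position of the mutation is not given in the sources used here, so these fragments, of 24 to 29 nt, can lie outside the mutated part and do not check the genotype.

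MicroRNAs are cut by Drosha and Dicer from hairpins of longer transcripts, and one strand of the resulting duplex is loaded into an Argonaute protein, where its seed pairs with the 3′ untranslated region (UTR) of target mRNAs. The miR-29 family is known for repressing the de novo DNA methyltransferases Dnmt3a and Dnmt3b, the TET enzymes and Tdg of the demethylation pathway, and collagens and other proteins of the extracellular matrix. Fetal male germ cells at this stage are known to gain DNA methylation anew over most of the genome.

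The mature strands from the 3′ side of the hairpins (3p) are shown because they carry nearly all reads of the family and because they differ so little that the exact match is what separates them. They are given as RNA from RefSeq (GRCm38.p6), 5′ to 3′, with the seed, bases 2 to 8, in capitals.
miR-29a-3p: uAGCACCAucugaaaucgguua
miR-29b-3p: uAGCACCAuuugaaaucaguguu
miR-29c-3p: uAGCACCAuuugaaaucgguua
The seed is the same in all 3, and no other of the 1679 mature names in the RefSeq table has it. Counted from 1 at the 5′ end, miR-29a-3p and miR-29c-3p differ by the single substitution C10U. From miR-29c-3p to miR-29b-3p the substitutions are G18A, U21G and A22U, and miR-29b-3p is 1 base longer. The sequence of miR-29b-3p is the same in Mir29b-1 and Mir29b-2, so its reads cannot be assigned to either hairpin.

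The strand from the 5′ side (5p) of Mir29c is shown because it was the only 5p strand with reads, again with bases 2 to 8 in capitals.
miR-29c-5p: uGACCGAUuucuccugguguuc

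The hairpins form 2 pairs on GRCm38. Mir29a lies on chromosome 6 from 31062660 to 31062747 and Mir29b-1 from 31063023 to 31063093, both on the minus strand and 275 bases apart. On the plus strand of chromosome 1, Mir29b-2 lies from 195037040 to 195037120 and Mir29c from 195037547 to 195037634, with 426 bases between them.

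The family was scarce in both libraries. Levels are given as reads per 1000000 reads inside miRNA hairpins (RPM), a scale close to the study's own normalization to miRNA reads, with exact Poisson intervals of 95%. Each read of 16 nt or more was counted once whatever its length, and no scaling by length was applied. The whole family reached 28.9 RPM in WT (22.7 to 36.4) and 35.9 RPM in the library labelled KO (28.95 to 44.1). These are 0.00289% and 0.00359% of the hairpin reads, or 1 read in 34563 and 1 in 27842. Mir10b, the most abundant miRNA, had 19320-fold as many reads as the family in WT and 15380-fold as many in the library labelled KO.

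Mir29a held most of the family. It had 53 reads in WT and 68 in the library labelled KO, which is 21.01 RPM (15.7 to 27.5) and 26.6 RPM (20.6 to 33.7). Its share of the family's reads was 72.6% in WT (95% Wilson interval 61.4 to 81.5) and 73.9% in the library labelled KO (64.1 to 81.8). All of these reads came from the 3p strand.

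Mir29c came next, with 16 reads in WT and 21 in the library labelled KO, or 6.34 RPM (3.63 to 10.3) and 8.20 RPM (5.08 to 12.5). Mir29a exceeded it 3.31-fold in WT (1.87 to 6.21) and 3.24-fold in the library labelled KO (1.96 to 5.56), by exact binomial intervals that both lie above 1. The ratio between these members was thus alike in the libraries, and the quotient of their KO/WT ratios was 0.978 with an exact conditional interval of 0.431 to 2.19. A difference between them of less than about that interval was not detectable at this depth.

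Mir29b was close to the limit of detection. The hairpins Mir29b-1 and Mir29b-2 together had 4 reads in WT and 3 in the library labelled KO, or 1.59 RPM (0.432 to 4.06) and 1.17 RPM (0.242 to 3.42). A count of 3 reads, taken as the limit that a count of 0 allows, is 1.19 RPM in WT and 1.17 RPM in the library labelled KO. Of these reads 3 in WT and 3 in the library labelled KO started at the first base of miR-29b-3p. The remaining WT read, of 17 nt, covered the loop of Mir29b-1 and was counted with the 3p side by the position of its middle. Mir29c exceeded the Mir29b hairpins 4-fold in WT (1.29 to 16.4) and 7-fold in the library labelled KO (2.09 to 36.7). The order of levels, Mir29a above Mir29c above Mir29b, was therefore the same in the libraries, and each step was larger than the counting error. The efficiency with which each sequence is ligated and amplified was not measured, so the order is one of reads.

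**Figure D1:**
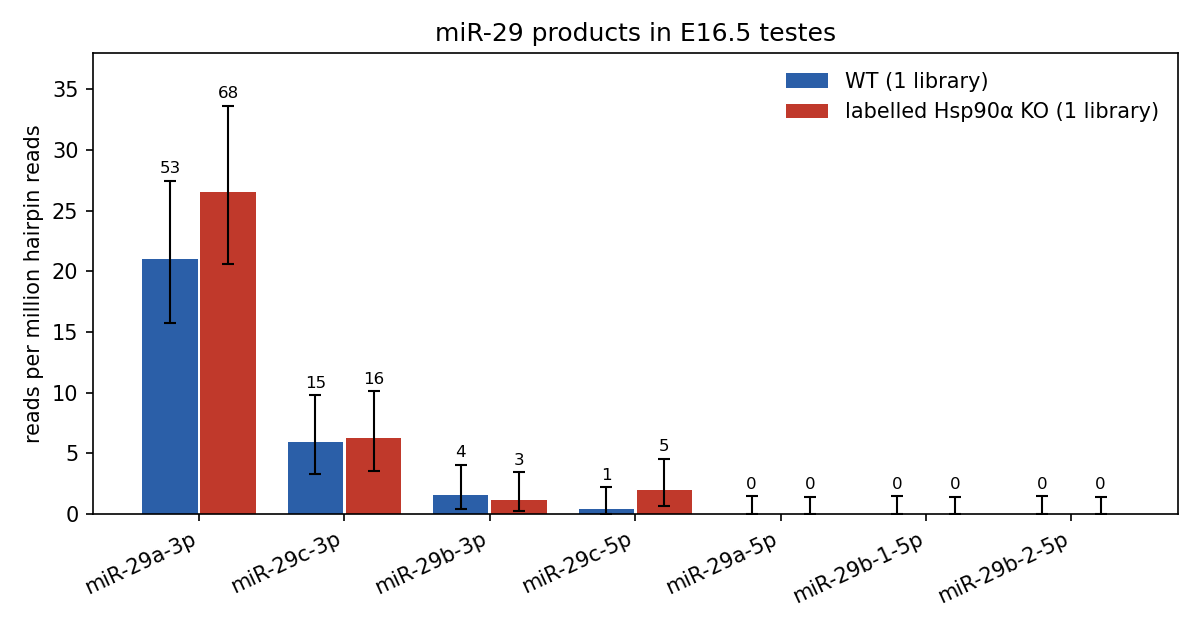
Level in RPM of each miR-29 product in the WT library and in the library labelled Hsp90α KO, with bars for the level, error bars for the exact 95% Poisson interval and the read count above each bar. miR-29a-3p stood highest with 53 and 68 reads, and miR-29a-5p, miR-29b-1-5p and miR-29b-2-5p had 0 reads in both libraries.

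The members of each pair differed in reads although they lie next to each other. On chromosome 6, Mir29a had 53 and 68 reads while Mir29b-1 could account for at most 4 and 3. On chromosome 1, Mir29c had 16 and 21 reads and Mir29b-2 at most 3 and 3.

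Reads came almost wholly from the 3p strands. These made up 72 of 73 family reads in WT, a share of 98.6% (95% Wilson interval 92.6 to 99.8), and 87 of 92 in the library labelled KO, a share of 94.6% (87.9 to 97.7). Mir29a had 0 reads of its 5p strand among 53 and 68, and the Mir29b hairpins had 0 as well, which at 3 reads allows up to 1.19 RPM in WT and 1.17 RPM in the library labelled KO, and up to 1.46 and 1.44 RPM by the 2-sided Poisson interval used for the levels. Mir29c gave 1 read of its 5p strand in WT and 5 in the library labelled KO, or 6.25% (1.11 to 28.3) and 23.8% (10.6 to 45.1) of its reads. The ratio of these counts, 4.93, had a counting interval of 0.551 to 233, so a difference was not detectable. No read of 16 nt or more matched a family hairpin on the antisense strand in either library.

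**Figure D2:**
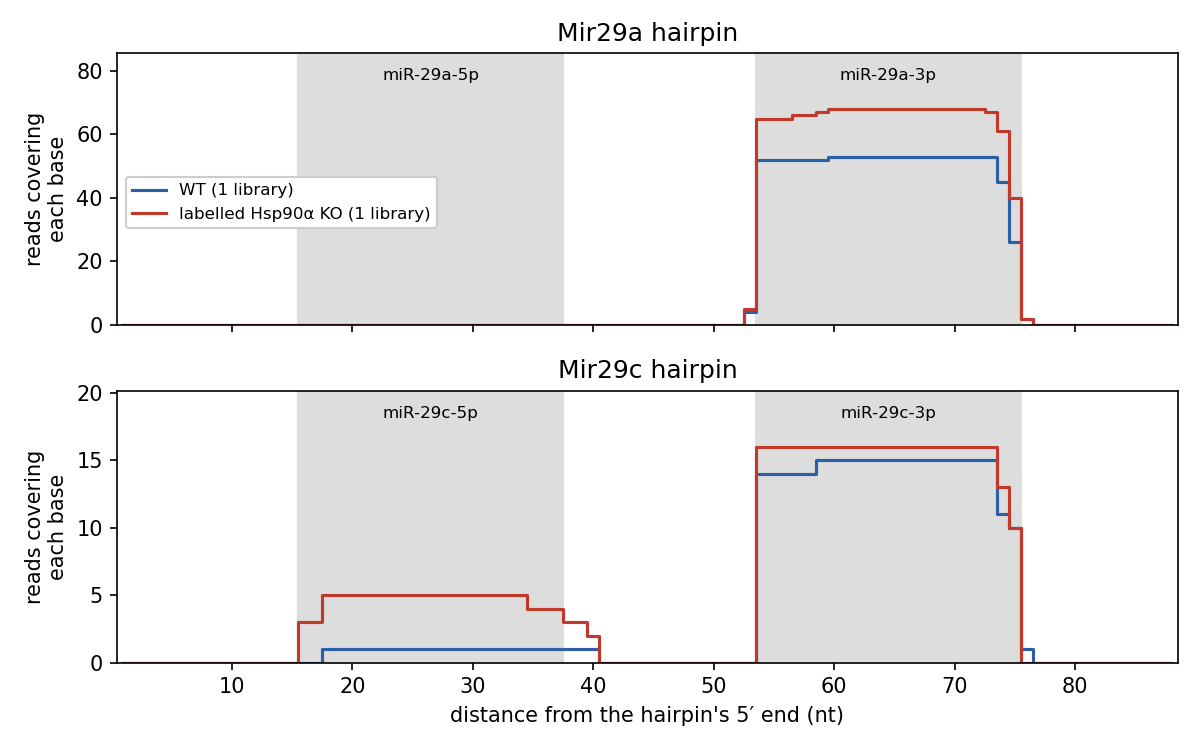
Number of reads covering each base of the Mir29a and Mir29c hairpins, by distance from the 5′ end of the hairpin in nt, in the WT library and in the library labelled Hsp90α KO, with the RefSeq mature strands shaded. Mir29a reads lay over the 3p strand alone, up to 53 and 68 reads deep, and Mir29c reads lay mostly over the 3p strand with 1 and 5 reads over the 5p strand.

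The 5′ ends of the reads were uniform, and the seed is set by this end. Among reads of the 3p side, 65 of 72 in WT and 79 of 87 in the library labelled KO began at the first base of the mature strand, shares of 90.3% (81.3 to 95.2) and 90.8% (82.9 to 95.3). For miR-29a-3p the shares were 90.6% in WT (79.8 to 95.9) and 88.2% in the library labelled KO (78.5 to 93.9). A further 4 and 5 reads of miR-29a-3p began 1 nt upstream, a position that moves the seed by 1 base. For miR-29c-3p, 14 of 15 and 16 of 16 reads began at the first base. The remaining 3p reads were pieces of 16 or 17 nt that began 3 nt or more downstream of the mature start, and, in WT, the read over the loop of Mir29b-1.

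The 3′ ends of the 3p reads varied more than their 5′ ends. Of the miR-29a-3p reads with the mature 5′ end, 23 of 48 in WT and 35 of 60 in the library labelled KO had the full 22 nt. Another 17 and 18 lacked the last base, 6 and 5 lacked the last 2 bases, and 2 and 1 were longer by 1 base of the hairpin. The full-length share was 47.9% in WT (34.5 to 61.7) and 58.3% in the library labelled KO (45.7 to 69.9), with intervals that overlap. Of the miR-29c-3p reads with the mature 5′ end, 8 of 14 and 10 of 16 had the full 22 nt, 1 and 3 lacked 1 base and 4 and 3 lacked 2. The most frequent single sequence of each of these products was the RefSeq mature strand in both libraries.

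The rule leaves out reads with bases added at the 3′ end that the hairpin does not hold. Allowing a tail of 1 to 3 such bases after at least 18 matching ones added 10 reads in WT and 13 in the library labelled KO, or 12.05% (6.68 to 20.8) and 12.4% (7.38 to 20.0) of the family with its tailed reads. Over all hairpins the shares were 11.9% and 11.8%. Tails made only of A were on 4 of the 10 and 6 of the 13 tailed reads. A U added to the full 22 nt matches the next base of the Mir29a and Mir29c hairpins and counts as part of them, as does an A added to the form lacking its last base, so the full shares of U and A tails could not be measured. Mir29a had 8 tailed reads in WT and 4 in the library labelled KO, or 13.1% (6.80 to 23.8) and 5.56% (2.18 to 13.4) of its reads with the tailed ones. Mir29c had 2 and 8, or 11.1% (3.10 to 32.8) and 27.6% (14.7 to 45.7). For each gene the intervals of the libraries overlap.

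The comparison between genotypes asks whether the scarce miR-29 family differed between the library from the mutant and the WT library. The KO/WT ratio of the family was 1.24, with an exact conditional 95% interval of 0.903 to 1.71. The ratio was 1.26 (0.870 to 1.85) for Mir29a, 1.29 (0.643 to 2.65) for Mir29c and 0.739 (0.108 to 4.37) for the Mir29b hairpins together. By strand it was 1.05 (0.487 to 2.28) for miR-29c-3p and 1.19 (0.861 to 1.65) for the 3p strands of the family together. All of these intervals hold 1, so no difference was detectable at this depth. The interval of the family does not extend to a 2-fold change in either direction, whereas that of Mir29c does on the higher side and that of Mir29b in both directions.

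The spread of the other miRNAs gives the background for these ratios. A miRNA gene was called when its KO/WT ratio was above 1.2 or below its inverse, counting genes whose reads summed to 100 or more over the libraries and dividing a read of several genes equally between them. Of 298 such genes, 107 or 35.9% were called, 21 of them higher (7.05%) and 86 lower (28.9%) in the library labelled KO. Of the members only Mir29a reached 100 reads, and it was called higher, with an interval that holds 1. Among the 205 genes with at least 100 reads specific to them, 23.9% were called, 10.2% higher and 13.7% lower. Genes with a higher ratio than Mir29a numbered 15 of the 298. At the depth of Mir29a, 34 genes had 100 to 200 reads specific to them, with a median ratio of 0.913, and 6 of these were called higher and 11 lower, while 4 had a higher ratio than Mir29a. With shared reads divided, the range held 74 genes with a median of 0.614, and 41 of them took under 50% of their reads from sequences of their own and had a median of 0.313. The call rests on size alone, and 1 called member is no result about the family.

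Mir29a ranked 284th in level, Mir29c 374th, Mir29b-1 675th and Mir29b-2 715th of the 1230 miRNA genes with a read, by the sum of RPM over the libraries. The genes next to Mir29a in level were Mir365-1 and Mir194-2 above it and Gm47301 and Mir363 below it, the likeness being in summed RPM over 2 libraries. Their KO/WT ratios were 0.939 for Mir365-1, 1.10 for Mir194-2, 0.567 for Gm47301 and 1.31 for Mir363, against 1.26 for Mir29a.

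**Figure D3:**
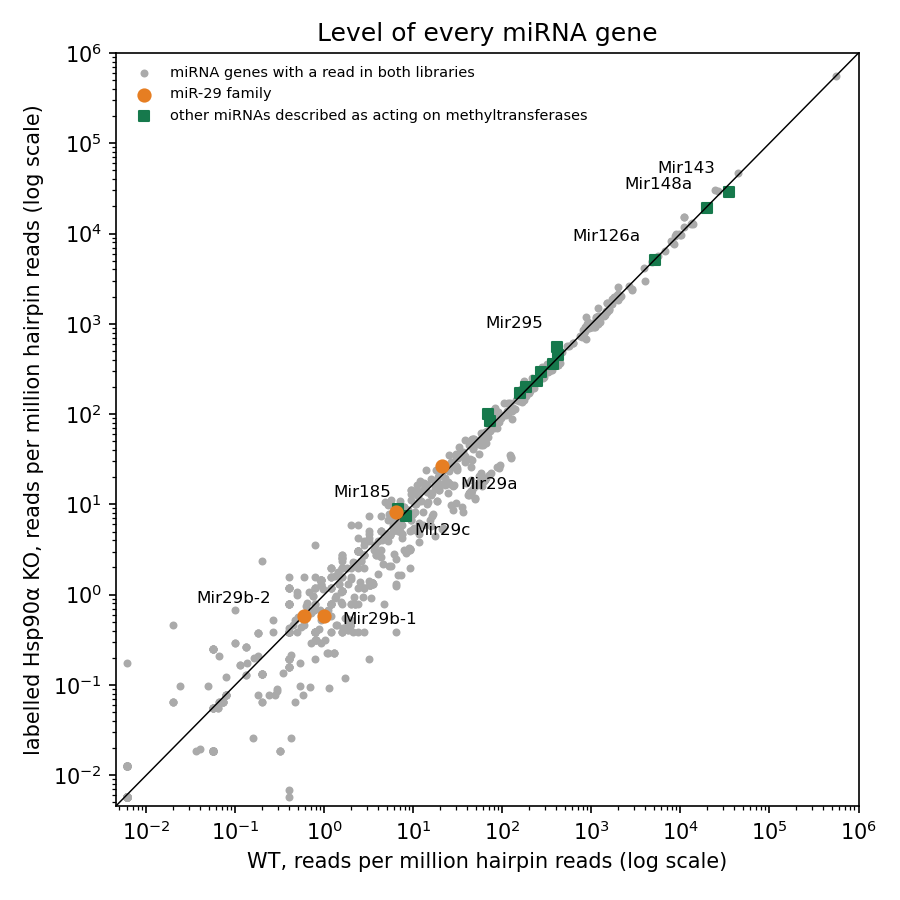
Level of every miRNA gene with a read in both libraries, WT on the horizontal and the library labelled Hsp90α KO on the vertical axis, in RPM on log scales, with reads of several genes divided equally and the line of equal levels. Mir29a at 21.01 and 26.6 RPM lay far below Mir143, Mir148a and Mir126a and near the line.

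Other miRNAs described as acting on DNA methyltransferases or on their regulators were mostly far more abundant. The list held 14 genes, and 12 of them ranked above the whole miR-29 family. Mir143, described as acting on Dnmt3a, had 89553 reads in WT and 73755 in the library labelled KO, 1227-fold and 802-fold the reads of the family. Mir148a, described as acting on Dnmt1 and Dnmt3b, had 49627 and 49259 reads, 680-fold and 535-fold those of the family. Its paralogs Mir148b and Mir152 had 614 and 603 and 933 and 929 reads. Mir126a, the endothelial miRNA described as acting on Dnmt1, had 12951 and 13184 reads, and Mir342 had 1072 and 1164. Mir101a had 687 and 743 reads and Mir101b 460 and 511. Mir185, with 21 and 19 reads, and Mir290a, with 17 and 23, lay below Mir29a.

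Of the 12 listed genes with at least 100 reads, 2 were called higher, 1 was called lower and 9 were not called, against the 35.9% called over all genes, and their median KO/WT ratio was 1.07 against 0.949 over all 298. Mir291a at 1.48 (1.22 to 1.80) and Mir295 at 1.35 (1.24 to 1.46) were the higher ones, both from the miR-290 cluster, which is known from pluripotent and germ cells and acts on the methyltransferases through Rbl2. Mir143 at 0.811 (0.803 to 0.819) was the lower one. The KO/WT ratio of the miR-29 family was 1.53 times that of Mir143, with an exact interval of 1.11 to 2.11 that leaves out 1. It was 1.27 times that of Mir148a (0.924 to 1.75) and 1.26 times that of Mir10b (0.914 to 1.73), and these intervals hold 1.

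**Figure D4:**
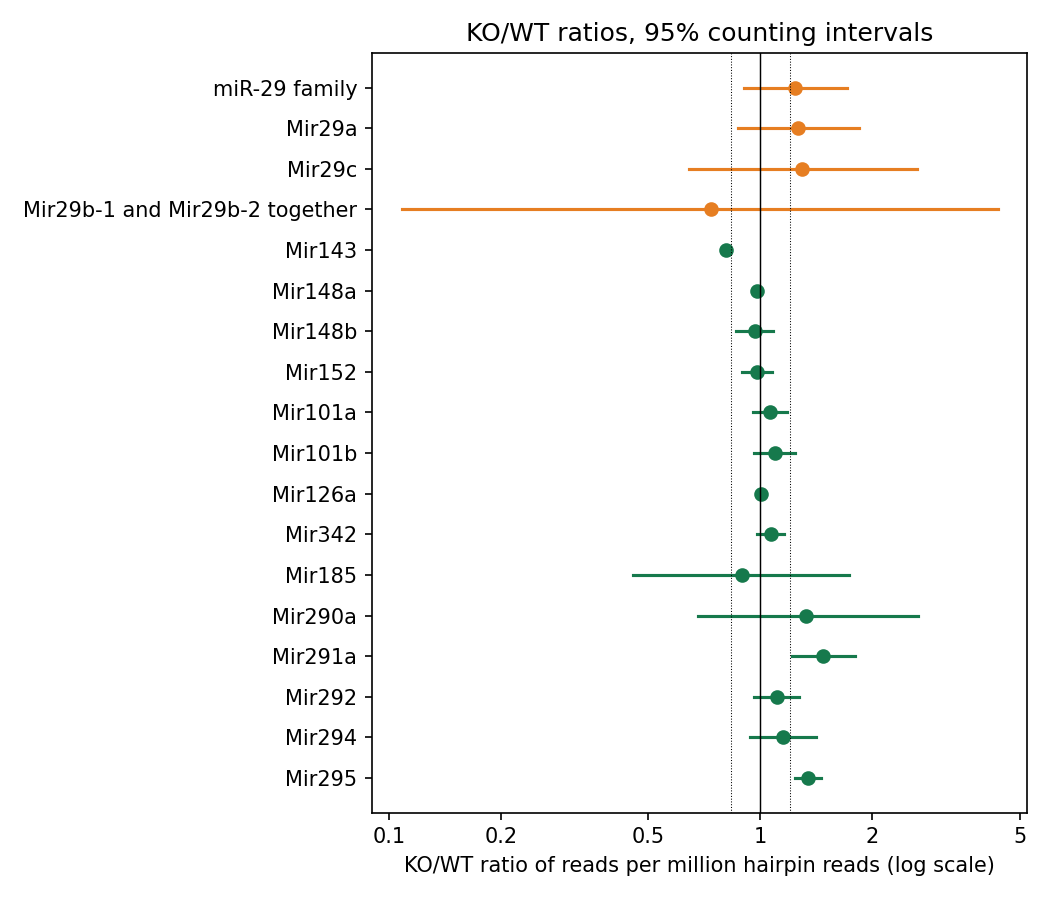
KO/WT ratio of levels in RPM, on a log scale, for the miR-29 family and its genes (orange) and for the 14 other miRNAs described as acting on methyltransferases (green), with exact conditional 95% counting intervals and dotted lines at the 1.2-fold limits. The interval of the family, 0.903 to 1.71, holds 1, as do those of its genes.

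Markers of the cell types of the testis, some of them also on the list above, gave their own ratios. The germ cell markers were 6 genes of the miR-290 cluster, not all of it, and summed to 795 RPM in WT and 1031 RPM in the library labelled KO. Their ratio was 1.30 (1.22 to 1.38), and none was at 0. Mir295 gave 1045 of the 2005 reads in WT and 1428 of the 2641 in the library labelled KO. The intervals of Mir290a, Mir292 and Mir294 hold 1, and those of Mir291a, Mir293 and Mir295 lie above it. Mir291b, of the same cluster but not among the markers, had 19 and 20 reads, a ratio of 1.04. Mir202, of the gonadal supporting cells, had 1996 and 2134 RPM, a ratio of 1.07 (1.03 to 1.11). The 6 mesenchymal genes gave 1.02 (1.01 to 1.03), though Mir199a-1 and Mir199a-2, which share nearly all reads, stood at 1.32 and Mir143 at 0.811. Mir126a gave 1.003 (0.979 to 1.03), and Mir451a, Mir144 and Mir486 of red blood cells together 0.870 (0.842 to 0.899), most of it from Mir486 with 7082 and 6302 reads. Fragments of mRNAs of the supporting cell genes Sox9 and Amh numbered 32 in WT and 15 in the library labelled KO, a ratio of 0.462 (0.232 to 0.878), and those of Ddx4, Dazl, Dppa3 and Dnmt3l of germ cells 8 and 16, a ratio of 1.97 (0.796 to 5.32). The Leydig cell genes Cyp17a1, Cyp11a1 and Star had 8 and 12 fragments, the endothelial genes Pecam1 and Cdh5 9 and 1 (a ratio of 0.109, 0.00250 to 0.790), and the globin genes Hbb-bt and Hba-a1 5 and 1. Genes at 0 were Ddx4 in WT and Pecam1 and Hbb-bt in the library labelled KO. Such fragments are no measure of mRNA level, and lower ratios were common among them. Over 4847 protein-coding genes with more than 3 fragments in a library the median ratio was 0.627. With 20 to 100 fragments, as Amh had, 27.2% of 859 genes had an interval wholly below 1. Of the Amh fragments 20 of 27 in WT and 8 of 13 in the library labelled KO were of 24 to 33 nt. All reads of that length outside miRNA hairpins had a ratio of 0.638. The part of cell composition in the miR-29 counts was not tested.

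Seed matches link the family to its known targets by sequence. The 8-base match to the family, TGGTGCTA, pairs with the seed and adds an A opposite the first base, and it contains the 7-base match TGGTGCT. Both were searched on the mRNA strand of the longest annotated 3′ UTR of each protein-coding gene in GENCODE release M21, and 2.85% of 21028 such UTRs held the 8-base match and 13.1% the 7-base match. Of the 9 genes of the DNA methylation machinery, 5 held the 8-base match and 6 the 7-base match, and of the 10 extracellular matrix genes 7 and 8 did. Both lists hold known targets of the family, so these counts are no test of targeting. Long UTRs hold a match more often, and the shares in UTRs within 20% of the same length are the closer comparison. The UTR of Dnmt3a, of 6696 nt, held 2 copies, against a share of 11.9% with at least 1 among 495 UTRs of like length. The UTR of Tet2, of 3058 nt, held 2 copies (5.76% of UTRs of like length with at least 1), that of Tet3, of 5669 nt, 2 (11.02%), that of Tet1, of 7962 nt, 1 (12.7%) and that of Tdg, of 2079 nt, 1 (4.27%). The Dnmt3b UTR held no 8-base match and 1 7-base match. Among the matrix genes the UTRs of Eln and Col5a1 held 2 copies each (1.94% and 5.63% of UTRs of like length with at least 1). Those of Col1a1, Col3a1, Col4a1, Col5a2 and Fbn1 held 1 each (1.91% to 3.10%), and those of Col1a2, Col4a2 and Sparc held none.

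The first 8-base match in each of the UTRs of the methylation and demethylation genes is shown with the 14 bases before it, since it is through these letters that the strands printed above would pair. The match is in capitals, as DNA on the mRNA strand, from GENCODE release M21.
Dnmt3a: ccaggggaggtagcTGGTGCTA
Tet1: tttcttgaaggagaTGGTGCTA
Tet2: gtgttaacattaaaTGGTGCTA
Tet3: aatagtctaataaaTGGTGCTA
Tdg: tcatgcattttccaTGGTGCTA
On GRCm38 they lie at chr12:3911391-3911412 on the plus strand (Dnmt3a), at chr10:62806042-62806063 on the minus strand (Tet1), at chr3:133466173-133466194 on the minus strand (Tet2), at chr6:83364336-83364357 on the minus strand (Tet3) and at chr10:82649663-82649684 on the plus strand (Tdg). A match is a description of the letters, and pairing was not measured.

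Fragments of the target mRNAs were also in the libraries, as sense reads of 18 nt or more specific to 1 gene. They are pieces of RNA of unknown origin and no measure of mRNA level. The 9 genes of the methylation machinery had 105 fragments in WT and 53 in the library labelled KO, a ratio of 0.497 (0.350 to 0.698). Dnmt3a, the de novo methyltransferase with the most fragments, had 43 and 23, or 1.76 and 0.927 RPM per kb of its longest transcript, and a ratio of 0.527 (0.303 to 0.894). Tet1 had 21 and 4 fragments and Tet3 21 and 6, with ratios of 0.188 (0.0468 to 0.556) and 0.281 (0.0929 to 0.721). These 3 had an interval wholly below 1, and no gene of the list had one wholly above it. Over all protein-coding genes with more than 3 such fragments in a library, as 6 of the 9 had, 10.4% of 4847 had an interval wholly below 1 and 0.681% one wholly above it, and the median ratio was 0.627. In the depth range of 20 to 100 fragments, which held Dnmt3a, Tet1 and Tet3 alone of the list, 27.2% of 859 genes had an interval below 1 and 0.582% one above it, and the median ratio was 0.666. Lower ratios were thus common among mRNA fragments, and those of the list are not shown to be particular to it.

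The other members of the machinery had few fragments. Dnmt1, the maintenance methyltransferase, had 7 and 6, its partner Uhrf1 2 and 3, Dnmt3l, the catalytically inactive cofactor of germ cells, 5 and 5, Tet2 4 and 5, Tdg 2 and 0 and Dnmt3b 0 and 1. Most fragments of the list, 91 and 45, were of 24 to 33 nt, the length of piRNAs, with a ratio of 0.487 (0.333 to 0.704). All reads of that length outside miRNA hairpins had a ratio of 0.638 (0.637 to 0.640), whereas the matrix genes had 0.981 (0.826 to 1.17) at that length. The part of the length class in the ratio of the list was not tested. The fragments of the list of 18 to 23 nt numbered 11 and 7, with a ratio of 0.627 (0.206 to 1.77). At that length all reads outside miRNA hairpins had 0.958 (0.955 to 0.960) and the matrix genes 1.06 (0.876 to 1.28). The 10 extracellular matrix genes had 601 and 537 fragments of all lengths, a ratio of 0.880 (0.782 to 0.990), and no single one had an interval that leaves out 1. Col1a1, the chain of type I collagen with most fragments, had 249 and 219 and a ratio of 0.866 (0.719 to 1.04).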

How the data were processed

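Small RNA of whole testes at E16.5 was sequenced by the authors with the TruSeq small RNA kit on MiSeq, 1 library of 20 pooled testes per genotype. After adaptor removal the authors deposited, for every distinct sequence of 11 to 48 nt, its raw count, without mapping or normalization. The submitters' processing notes name mm9, which was not used here. For the present counts, sequences were matched to GENCODE release M21 (GRCm38), and counts were divided by all hairpin reads. Mature strands came from RefSeq, in which all 4 members were found. A read was given to the 5p or 3p strand by the side of the hairpin's centre on which its middle lay. Reads in several genes were divided equally for ranks and calls, a choice made after seeing the data. Mir292a and Mir486a of the lists are Mir292 and Mir486 in GENCODE.

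Ratios have exact conditional binomial (Clopper-Pearson) intervals, shares Wilson intervals and levels Poisson intervals, all of 95%. No test of genotype was made. On Poisson counts simulated for 619 miRNA genes 95.6% of the intervals held the simulated ratio. The intervals assume such counts, so this checked their calculation only. It held no PCR copies and no spread between libraries. The genes named were the members, the 2 miRNA genes above and below Mir29a in level, Mir10b, and lists of methyltransferase regulators, targets and cell type markers. Members and lists were chosen with earlier results of these data known. Alternatives covered the scaling, read length, shared sequences, mismatches, tails, distinct sequences, strand rule and call limits. The tools were scipy 1.17.1, numpy 2.4.6, matplotlib 3.10.9 and pandas 2.3.3 under Python 3.11.15.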

Additional observations from a re-analysis of the deposited data

How the results depend on the processing

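With 73 and 92 reads, counting error limits every statement on the family, and no library could be left out. No paired analysis was possible because each genotype had 1 library. Under the 10 alternatives the family's KO/WT ratio stayed above 1, between 1.21 (1 mismatch allowed) and 1.45 (scaled to all reads), and the interval excluded 1 only with the latter (1.05 to 1.99), which shifts every log2 ratio by 0.22. The ratio of miR-29a-3p ranged from 1.16 to 1.69 and also had an interval above 1 when scaled to all reads (1.01 to 2.15). That of miR-29c-3p ranged from 0.709, with distinct sequences, to 1.39, with 3′ tails, and that of miR-29b-3p from 0.728 to 0.986. In all, 39 of 39 alternative ratios lay inside the interval of the value reported. The alternatives reused the same reads and these intervals are wide, so this count is no independent check. Sequences specific to the member returned the reported value each time. No ratio was formed for miR-29b-3p where both libraries held 3 reads or fewer (minimum of 18 nt, 20 to 24 nt, distinct sequences, mature start).

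The 107 called of 298 miRNA genes became 60 (0 higher) at 1.5-fold, a limit Mir29a did not reach, 17 of 117 (8 higher) with at least 1000 reads and 283 of 540 (75 higher) with at least 10. With 2 ways of counting chosen after seeing the data they became 245 of 458 (34 higher) when shared reads counted in full for each gene and 49 of 205 (21 higher) with reads specific to 1 gene. Scaled to all reads 87 were higher and 64 lower, and with a median-of-ratios size factor 33 and 73, against 21 and 86.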
